A study of Labrus bergylta with 25 samples.

Results

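In the anterior intestine of juvenile ballan wrasse (Labrus bergylta), 101 of the 20208 genes in the table were near zero in some intestines and clearly expressed in others. They were selected on the deposited values themselves. A gene was taken when its normalized read count was 2 or less, called off here, in at least 5 of the 25 libraries and 30 or more, called on here, in at least 5 libraries. The rule did not use treatment, so the questions put to the members were whether the off state followed the treatment or cut across it, and which members were off in the same intestines.

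Each library came from the bulbous, the wide first segment of the gut of this fish that has no stomach. Intestines were dissected from farmed fish, all labelled female, and kept in Ringer's solution at 14 °C for 1 h after a bolus of 0.1% of body weight had been placed in the lumen. The 6 protein libraries came from intestines given hydrolyzed protein (casein with trypsin), and the 6 lipid libraries from intestines given hydrolyzed lipid (cod liver oil with lipase). The 7 cellulose libraries came from intestines given cellulose, an indigestible filler that stretches the gut but carries no nutrient, and the 6 empty libraries from intestines that received no bolus. The protein mix also held a protease and phosphatase inhibitor, the lipid mix Tween and the cellulose mix a blue dye. Effects of these additions cannot be told apart from those of the bolus itself. All groups shared the fasting before dissection, the bath and the incubation, and differed in what the lumen held. The preparation is an isolated intestine, cut off from the circulation and the central nervous system. Libraries are named below by treatment and the number in their label. The numbers are not shared between treatments.

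RNA-seq of a piece of gut wall averages over absorptive epithelium, secretory and hormone-producing cells, muscle, nerve and immune cells. Among the genes known in other animals to be near zero in some individuals and abundant in others are inducible genes, genes of patchy or transient cell types and genes whose alleles or copy number differ between animals. Which of these the members are is not known here. In bulk samples, fewer cells of a type and less RNA per cell cannot be told apart. The genes carry identifiers of the form LABE_00070443-RA. The files do not pair these with gene names and none of them matched the RefSeq gene table used here, so members are described by identifier, no function is given for them, and the tissue could not be checked against marker genes.

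The 23 libraries whose whole read numbers were recovered held between 10160088 and 31586869 reads on the listed genes (read numbers were not taken for 2 further libraries). Of the 714 off values in those libraries, 440 were 0 reads, 201 were 1 read and 73 were 2 to 4 reads, whereas the smallest on value rested on 22 reads. An off call thus means few or no reads at this depth, and not proven absence. Genes with no read at all numbered 1003 in empty library 30, 803 in empty library 19 and 659 in cellulose library 27, against 89 to 355 in the other libraries, and results are given with and without these 3 where it mattered. In the 56 pairs of libraries of the same treatment with recovered reads, no 2 were copies of each other. Lipid library 21 and empty library 19 were not compared.

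Over all 2525 member values, 772 (30.6%) were off, 928 (36.8%) lay between 2 and 30, and 825 (32.7%) were on. These counts follow from the rule and are given as description. The typical member was off in 7 libraries and on in 7, with 9 in between, and 25 members were off in exactly 5 libraries, the least the rule allows. The most often silent member was off in 18 libraries. On a log2(value + 1) scale the SD across libraries ran from 1.66 to 4.92 with a median of 2.32, compared with a median of 0.41 for all 19033 genes tested for level. The highest value reached by a member had a median of 111. It was under 100 in 42 members, and the highest of all was 8606.

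Some members fell into 2 separate levels and others were graded. In 32 members the largest step between neighbouring libraries, once sorted, was at least 2 log2 units, and in 10 it was at least 3. Such a step did not always part 2 levels. In LABE_00050254-RA the step of 3.83 set only the highest library apart from the other 24. In LABE_00087332-RA the largest step, 2.28, ran from 0 to 3.87. The largest step was 5.31 log2 units. By another count, 25 members had 13 or more libraries in the intermediate range, so for them on and off are the tails of a continuous spread. The 2 counts overlap, since LABE_00087332-RA, with 15 intermediate libraries, is in both. The limits also cut through a continuum of genes. LABE_00040603-RA and LABE_00070820-RA were just inside the off limit, with fifth-lowest values of 1.95 and 1.93, while LABE_00074173-RA and LABE_00044428-RA, both at 2.02, were just outside. On the other side, LABE_00074106-RA and LABE_00031709-RA entered with fifth-highest values of 30.17 and 30.18, and LABE_00085329-RA and LABE_00082583-RA missed with 29.7 each.

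The members with the highest SD show how far apart intestines could be. LABE_00070443-RA had an SD of 4.92. In the protein group it was 0 in library 22 and 0.888 in library 32 and between 1352 and 2114 in the other 4, and in the lipid group it was 0 in libraries 9, 18 and 28 and between 1388 and 2590 in the other 3. In the cellulose group it was 0.726 in library 17, 10.7 in library 27 and between 1212 and 1744 in the remaining 5. In the empty group it was 0 in libraries 15 and 24, 28.4 in library 26, 12.6 in library 30, and 1820 and 1163 in libraries 12 and 19. Every treatment therefore held intestines at both ends, with nothing between 28.4 and 1163.

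LABE_00049209-RA, the member second in SD, varied more within its upper libraries. It had a largest step of 3.04 log2 units, with 11 libraries at 12.1 or less and the other 14 at 107 or more. It ran from 0 to 8606 in protein libraries (median 110), from 0 to 280 in lipid libraries (median 66.9), from 0 to 2745 in cellulose libraries (median 329) and from 0 to 7319 in empty libraries (median 5.25). All 4 ranges began at 0, and the highest lipid value was well under the highest values of the other treatments. Its off libraries were 2 protein, 2 lipid, 1 cellulose and 2 empty.

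**Figure D1:**
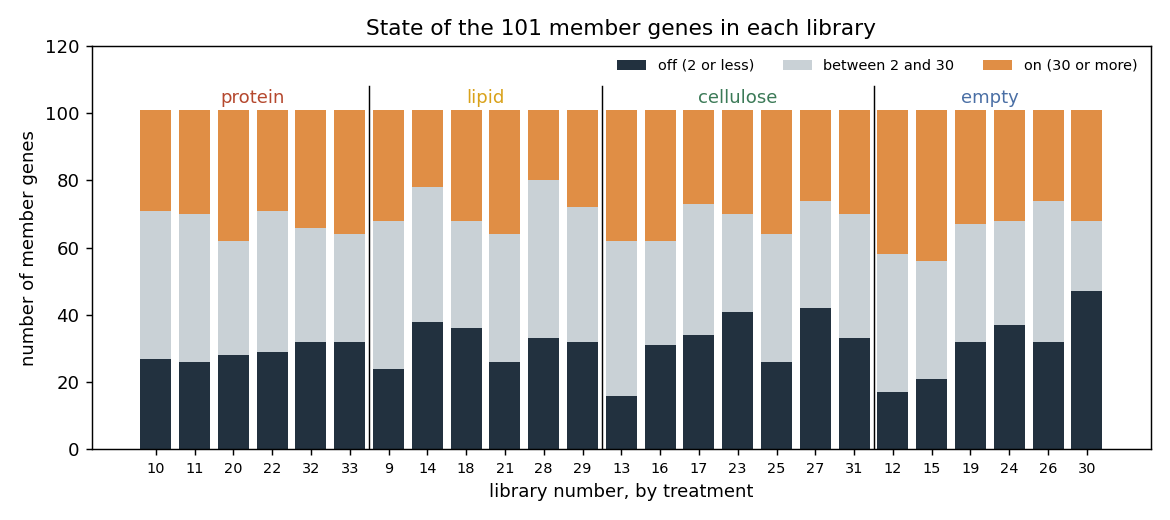
Number of the 101 member genes that were off, intermediate or on in each library (bars, count of genes), with libraries grouped by treatment on the horizontal axis. The number off ranged from 26 to 32 in protein libraries and from 17 to 47 in empty libraries, and every library held members in all 3 states.

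The first question was whether particular treatments switched members off as a class. The numbers of members off overlapped. The count was 26 to 32 in protein libraries (mean 29 ± 2.53, SD, n = 6), 24 to 38 in lipid libraries (31.5 ± 5.50, n = 6), 16 to 42 in cellulose libraries (31.9 ± 8.93, n = 7) and 17 to 47 in empty libraries (31 ± 10.9, n = 6). The group means lay within 3 genes of each other, less than the SD in every group but protein, and no test was made of a count over selected genes. Empty library 30 had the most members off, 47, and also the most genes at 0 over the whole table. Whether these are linked was not tested. The plot of states per library shows the protein intestines close together and the cellulose and empty intestines widely spread.

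Individual members crossed treatment in the same way. The off state occurred in libraries of all 4 treatments for 58 members, of 3 treatments for 40 and of 2 treatments for 3, and in no member was it limited to 1 treatment. The rule fixed part of this. Treatments had 6 or 7 libraries, so at most the 61 members off in 5 to 7 libraries could have been limited to 1. More directly, each member was both off and on inside the same treatment in at least 2 of the 4 treatments. Of the 101, 39 members did so in all 4 treatments, 38 in 3 and 24 in 2. These counts were not made for genes outside the members and are given as description. Intestines of the same treatment did not share their silent members more than others did. Of the members off in either library of a pair, a median of 17.1% were off in both for the 66 pairs of the same treatment (range 4.26 to 36.4%), and 19.1% for the 234 pairs of different treatments (range 0 to 38.3%). The pair with the most in common was lipid library 18 with empty library 30, where 23 of 60 members were shared.

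An exact test of the off state against the 4 treatments was run for each of the 1271 genes of the table that were off in 5 to 20 libraries. It called 2 of the 101 members at an unadjusted p under 0.05 (1.98%), while 4.72% of all genes tested were called. None had an adjusted p under 0.05. The share of members called was below the share of all such genes here, but this order was not stable. When the 2 nutrients were set against cellulose and empty together by Fisher's exact test, 2 members were called again, where the share of all genes called was 5.9%. The order turned without the 3 libraries with the most genes at 0, where 5 of 77 members (6.49%) were called against 4.58% of all genes. It also turned with off set at 1 or less (6.56% of members against 5.19%), with off set at 10 or less (7.92% against 4.91%) and without cellulose library 23 (5.49% against 4.53%). Between 1 and 5 members were called when any single library was left out, and in none of these settings did a member have an adjusted p under 0.05.

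The variance of each member's level gave the same picture. The share of a member's variance on the log2(value + 1) scale that lay between treatments had a median of 7.75% (range 0.17 to 48.2%). For all genes tested the median was 11.7%, and with 4 groups and 25 libraries a mean of 12.5% arises without any treatment difference. The shares are skewed, so their medians are not directly comparable with that mean. More than 25% of the variance lay between treatments in 15 members (14.9%), against 13.7% of all genes tested. Most of the variation in these genes was therefore between intestines of the same treatment.

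**Figure D2:**
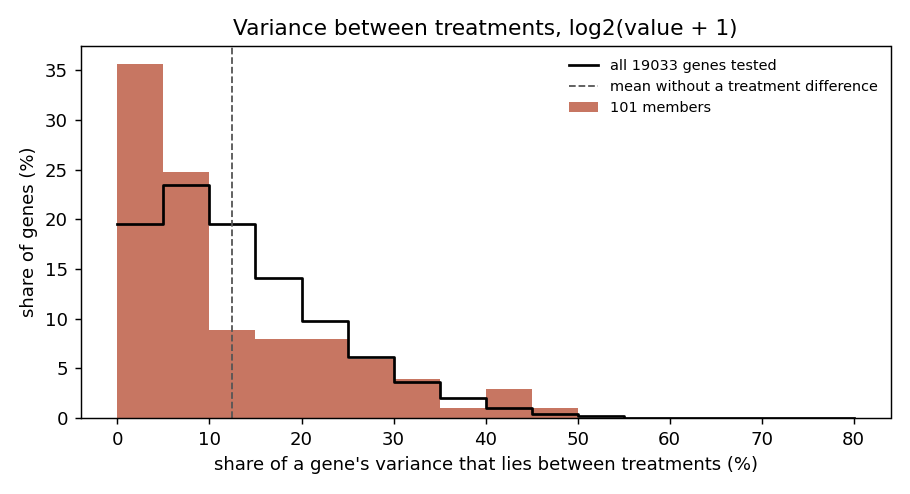
Share of genes (%, vertical axis) by the share of their variance that lies between the 4 treatments (%, horizontal axis), for the 101 members (bars) and all 19033 genes tested (line), with the 12.5% mean without a treatment difference dashed. The members lie further to the left, with a median of 7.75% against 11.7%. The dashed mean is not directly comparable with these medians.

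The member with the smallest p in the exact test was LABE_00094302-RA. It was off in 1 of 6 protein libraries, 3 of 6 lipid libraries, 7 of 7 cellulose libraries and 3 of 6 empty libraries (exact test p = 0.0195, adjusted p = 0.837). Its values in protein libraries were 238, 317, 209, 0, 133 and 204, and in lipid libraries 0, 15.98, 171, 221, 0 and 1.79. In cellulose libraries they were 0 in 6 and 0.726 in library 17, and in empty libraries they were 0, 803, 0, 344, 0 and 425. Protein library 22 was the only protein intestine without it, and the cellulose range lay under every other protein value, while empty and lipid intestines took either state.

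In the comparison of protein with cellulose LABE_00094302-RA was higher by 6.33 ± 1.79 log2(value + 1) units (SE, limma, unadjusted p = 0.00175, adjusted p = 0.317). A change on this scale depends on the pseudocount because cellulose was near 0. The call at the unadjusted threshold held in all 36 alternatives tried. DESeq2, run on the recovered reads of the 23 libraries, gave this member an adjusted p of 0.0042 for protein versus cellulose and of 0.0072 for cellulose versus empty, while edgeR gave no member an adjusted p under 0.05. Those fits lacked empty library 19, where this gene was 0, and lipid library 21, where it was 221. Limma on all 25 libraries did not call it for cellulose versus empty. The exact off-state p also stayed under 0.05 in all 31 alternatives, with a highest value of 0.0472.

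LABE_00002158-RA, second in the exact test, was never off in a nutrient intestine. It was off in 0 of 6 protein and 0 of 6 lipid libraries, in 4 of 7 cellulose libraries and in 2 of 6 empty libraries (exact test p = 0.0327, adjusted p = 0.837). Its levels nevertheless overlapped, with 2.66 to 300.0 in protein libraries (median 7.17), 3.03 to 66.2 in lipid libraries (median 12.9), 0 to 58.9 in cellulose libraries (median 1.39) and 0.981 to 56.5 in empty libraries (median 6.46). The off-state call did not last: the exact p was 0.643 with off set at 5 or less, and it was 0.0545 without any 1 of the 12 nutrient libraries and 0.111 without cellulose library 16, 17, 25 or 31.

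The level of the members was then compared between treatments with limma on log2(value + 1), fitted on all 19033 genes. No member had an adjusted p under 0.05 in the test over 4 treatments or in any of the 6 contrasts. At the unadjusted threshold of 0.01 the 4-treatment test called 4 members and 1.6% of all genes, and 11 members were under 0.05. Here and in the contrasts below, shares of all genes are at 0.01 only. Counts of members under 0.05 cannot be set against them. The smallest adjusted p of a member was 0.533. The count called at 0.01 was 2 without protein library 10 or 11 or without lipid library 9, 14, 18 or 28. DESeq2 gave 1 member, LABE_00050254-RA, an adjusted p of 0.0042 in this test. That fit included protein library 33, where this gene had its highest value (1331), and was not repeated without it.

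Protein set against cellulose called 5 members, 4 higher and 1 lower in protein intestines, while 2.72% of all genes were called. In all, 11 members were under 0.05. The 5 calls were LABE_00094302-RA, LABE_00085286-RA, LABE_00038050-RA and LABE_00071226-RA, all higher, and LABE_00074106-RA, lower by 3.17 ± 1.12 log2 units. Only the first held through every alternative. Leaving out 1 library ended the others in 7 to 14 of 25 fits each, and the count fell to 1 without protein library 11, 20 or 33 or cellulose library 23.

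Lipid set against cellulose called 1 member, LABE_00072167-RA, lower by 3.43 ± 1.11 log2 units, and 1.09% of all genes. At the 0.05 level there were 8 members. The call was lost without lipid library 9, 14, 18 or 28 or cellulose library 25 or 27. In protein intestines against empty ones 3 members were called higher and none lower, and 2.77% of all genes were called. At the 0.05 level there were 9 members. One of the 3 was LABE_00050254-RA, higher by 3.89 ± 1.178 log2 units. Its values were 3.55 to 1331 in protein libraries (median 61.5) and 0 to 10.3 in empty libraries (median 2.91), so the ranges overlapped. This call was lost without protein library 33, the library with the highest value, and without the 3 libraries with the most genes at 0. DESeq2 gave an adjusted p of 0.0035, but that fit included protein library 33 and was not repeated without it.

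Lipid against empty called 2 members, 1 in each direction, and 0.788% of all genes, with 8 members under 0.05. Cellulose against empty called 0 members and 0.919% of all genes with limma, and 9 members had an unadjusted p under 0.05. edgeR called 2 and DESeq2 called 4 members in that contrast. The shares of all genes called by these tools are not given here, so their counts cannot be set against the limma share. The share of members called in these contrasts rests on very few genes and moved with the choice of test and library.

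Protein against lipid was the contrast with the smallest member p. It called 4 of 101 members, all higher in protein intestines, and 0.447% of all genes, with 7 members under 0.05. The smallest adjusted p was 0.889. Of the 4 genes, 3 belong to a group that switched together, so they are not 4 separate observations.

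The first of them, LABE_00065293-RA, ran from 18.8 to 334 in protein libraries (median 161), from 0 to 19.2 in lipid libraries (median 0), from 0 to 155 in cellulose libraries (median 10.4) and from 0 to 505 in empty libraries (median 13.5). The protein and lipid ranges met only at protein library 22 (18.8) and lipid library 21 (19.2). The difference was 5.63 ± 1.22 log2 units, the smallest limma p of a member in any contrast, and the gene also had the smallest p in the 4-treatment test (limma adjusted p = 0.533). Both calls held in all alternatives.

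LABE_00065295-RA ran from 7.67 to 328 in protein libraries (median 186), against 0 to 26.2 in lipid libraries (median 0), a difference of 5.08 ± 1.33 log2 units. Its cellulose values were 0 to 207 (median 44.6) and its empty values 0 to 223 (median 37.7). LABE_00072167-RA ran from 24.7 to 162 in protein libraries (median 56.0), against 0 to 23.3 in lipid libraries (median 0), a difference of 4.52 ± 1.15. Its cellulose values were 0 to 132 (median 41.8) and its empty values 0 to 124 (median 35.4), so for both genes the cellulose and empty medians lay between those of protein and lipid, and neither gene passed the threshold for protein against cellulose or empty. Only LABE_00072167-RA had no overlap between the 2 nutrients.

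The fourth, LABE_00071226-RA, was outside that group and second in the 4-treatment test (limma adjusted p = 0.565). Nor can it be counted as fully separate. Its r was 0.726 with LABE_00065295-RA and 0.713 with LABE_00072167-RA, and 0.630 with each after treatment means were removed. It was off together with each of them in 5 libraries. In cellulose library 27 and empty library 26 it was off while both of them were on. It ran from 6.82 to 295 in protein libraries (median 88.4), from 0 to 26.2 in lipid libraries (median 1.03), from 0 to 34.4 in cellulose libraries (median 18.9) and from 0 to 38.7 in empty libraries (median 13.4). Of the protein intestines only library 22 fell among the others. It was higher in protein than in lipid intestines by 4.57 ± 1.15 log2 units, and also passed the unadjusted threshold against cellulose (3.12 ± 1.10) and empty (3.31 ± 1.15). The protein versus lipid call held in all alternatives for each of the 4 genes. For LABE_00071226-RA the call against cellulose was lost in 12 and that against empty in 7 of the 25 fits that left out 1 library, and its 4-treatment call was lost without protein library 10 or 11. All of these calls were also lost at pseudocount 0.1. The limma p was then 0.0283 against cellulose, 0.0371 against empty and 0.0160 in the 4-treatment test.

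**Figure D3:**
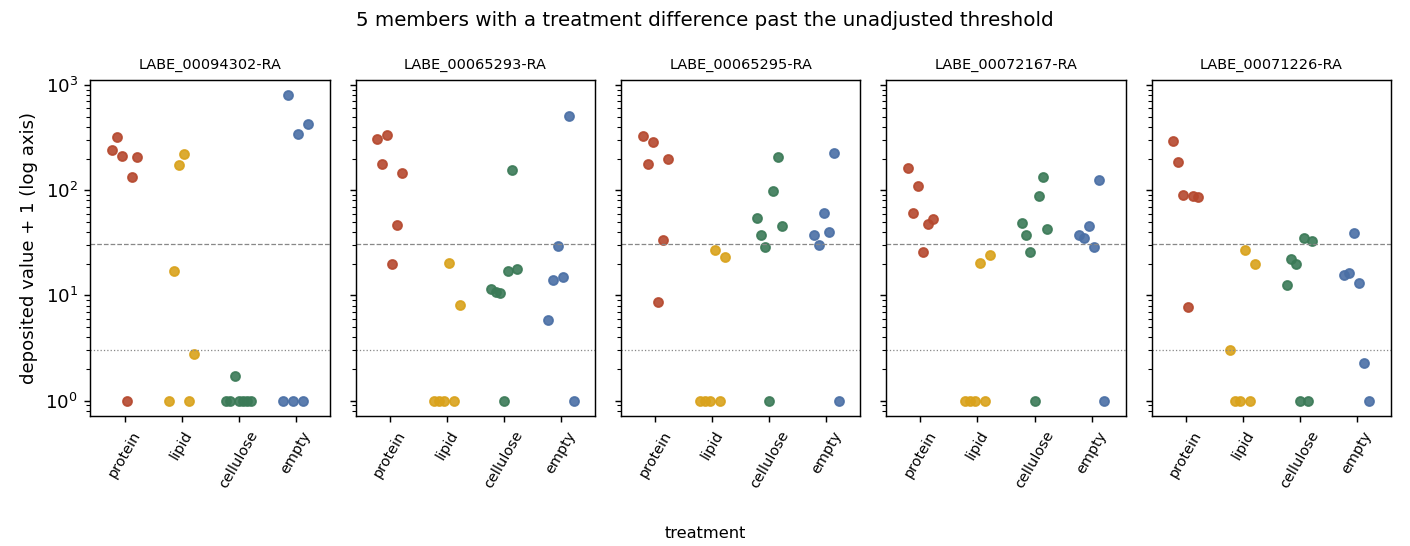
Deposited value plus 1 (log axis) of 5 members in each library, by treatment, 1 point per library, with the off limit dotted and the on limit dashed. LABE_00094302-RA is at or near 0 in all 7 cellulose libraries, and the other 4 genes are off in none of the protein libraries and in 3 or 4 of the 6 lipid libraries.

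The second question was which members switched together. Correlation across the 25 libraries, on log2(value + 1), was computed for all 5050 pairs of members and is given as description. All pairs share the same libraries and their depth. The median r was 0.009, and 30 pairs (0.594%) had r of 0.7 or more, compared with 0.172% of all pairs of tested genes. The highest r of a member to any other member had a median of 0.505, and 45 of the 101 had no partner at r of 0.5. Joining members by average linkage at r = 0.7 placed 26 in 10 groups, 1 of 5 genes, 3 of 3 and 6 of 2, and left 75 alone. Removing treatment means beforehand placed 27 members in 10 groups.

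**Figure D4:**
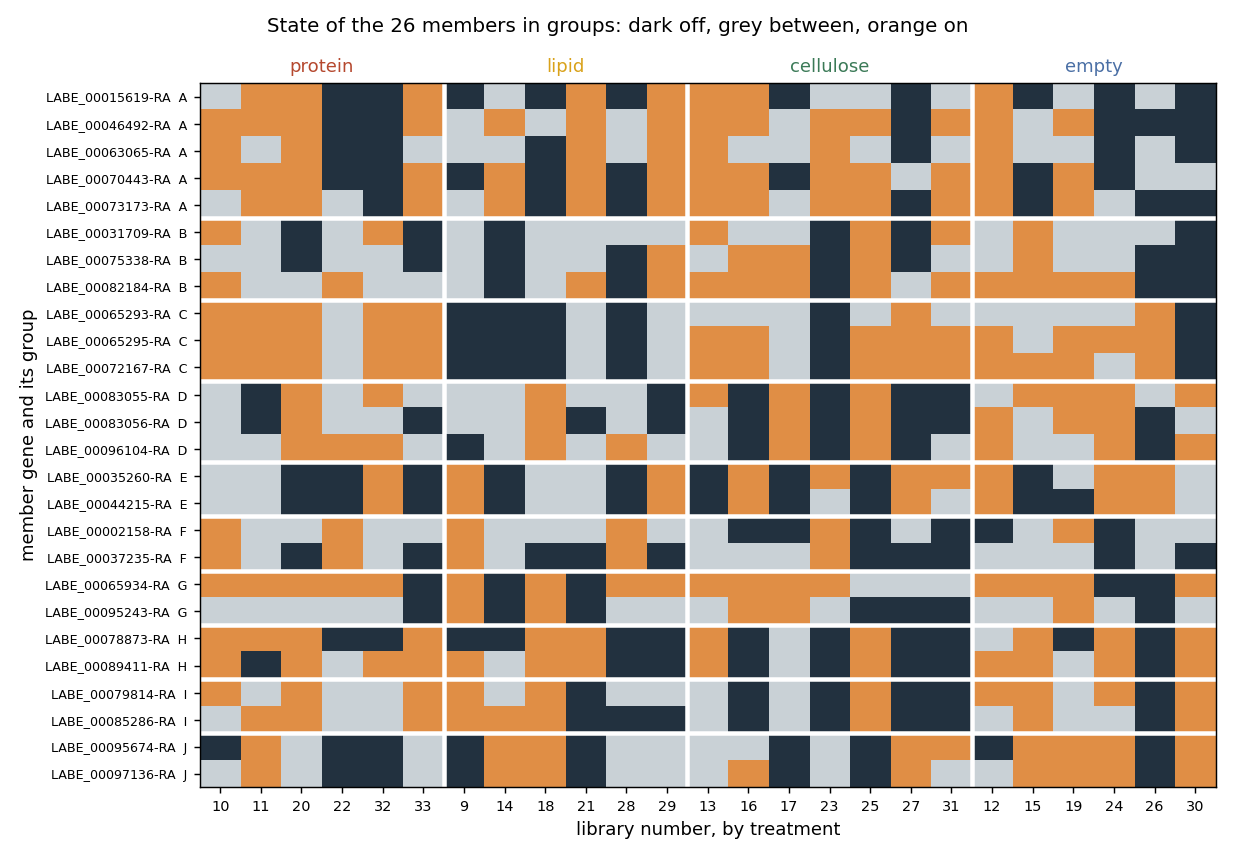
State of the 26 members in the 10 groups (rows, letters A to J) in each library (columns, by treatment), with dark for off, grey for intermediate and orange for on. Group C has the same 6 dark columns in all 3 rows, while in groups F and H only 3 of 13 and 7 of 13 of the columns with any dark cell are dark in both rows.

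The largest group, A, held LABE_00070443-RA, LABE_00046492-RA, LABE_00015619-RA, LABE_00073173-RA and LABE_00063065-RA. Their pairwise r was 0.849 to 0.9502, and 0.865 to 0.964 after treatment means were removed. It stayed at 0.837 or above whichever library was left out, and at 0.864 or above without the 3 libraries with the most genes at 0. The mean of the 5 genes split the intestines into 11 low and 14 high libraries with an empty interval of 4.39 log2 units between them. Low on this mean is not the same as off in every gene. At least 1 of the 5 genes was off in 11 libraries, but all 5 were off only in 1, protein library 32. All 5 were on together in 5 libraries. The low libraries were 2 of 6 protein (22 and 32), 3 of 6 lipid (9, 18 and 28), 2 of 7 cellulose (17 and 27) and 4 of 6 empty (15, 24, 26 and 30). Each treatment held both kinds.

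LABE_00015619-RA was the gene with the highest mean r to the others of group A (0.930). It ran from 0 to 89.8 in protein libraries (median 30.1), from 0 to 104 in lipid libraries (median 15.3), from 0 to 48.1 in cellulose libraries (median 23.2) and from 0 to 38.2 in empty libraries (median 1.29). In the 11 low libraries it was 0 to 2.58, and in the 14 high ones 13.9 to 104. The other genes had the same division at other levels: LABE_00046492-RA lay at 0 to 16.4 in the low and 102 to 487 in the high libraries, and LABE_00073173-RA at 0 to 6.52 and 29.7 to 83.5. LABE_00063065-RA was the least sharp, with 0 to 6.13 in the low and 6.95 to 63.6 in the high libraries.

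Outside the members, 6 genes of the table had r of 0.7 or more with the mean of group A. The nearest was LABE_00063069-RA (r = 0.983, n = 25), which was not a member because it never reached the off limit. It lay between 86.8 and 221 in the 11 low libraries and between 2541 and 6202 in the 14 high ones, with no library between. LABE_00086532-RA (r = 0.925), chosen after its values were seen, lay between 2.58 and 31.9 in the low and 111 and 260 in the high libraries. LABE_00063069-RA was on in all 25 libraries and LABE_00086532-RA in 15.

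**Figure D5:**
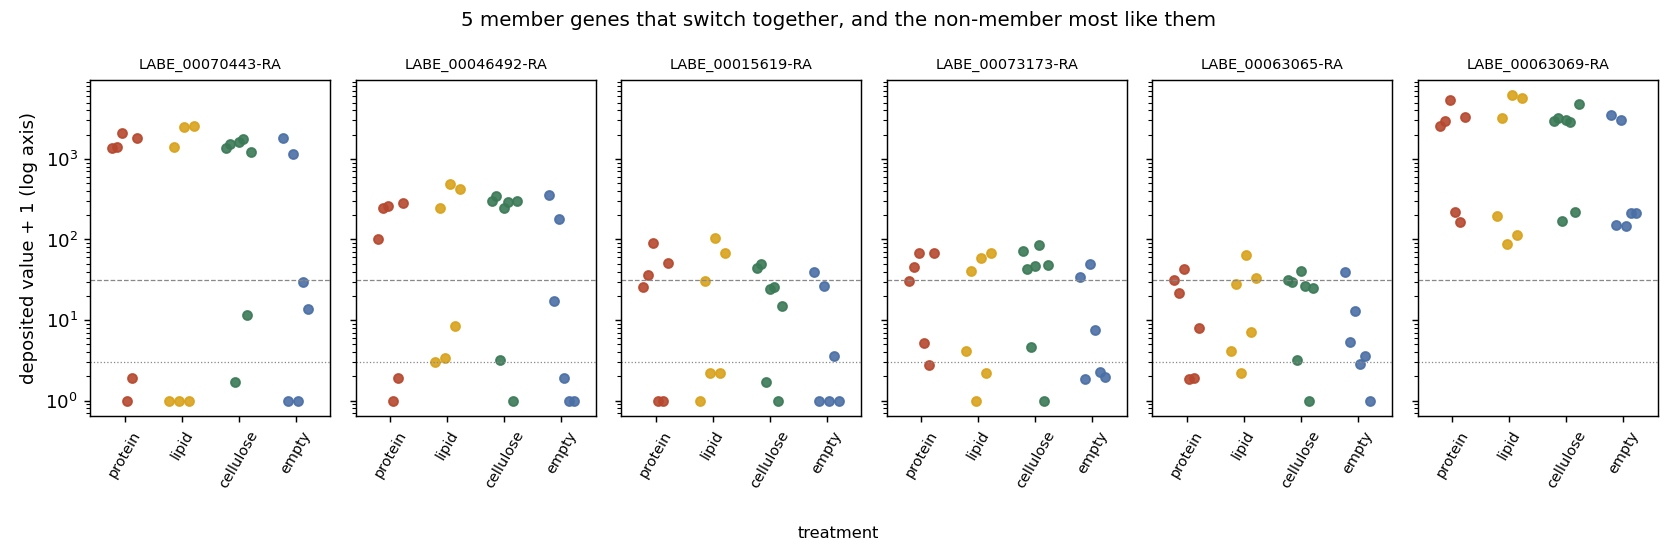
Deposited value plus 1 (log axis) of the 5 genes of group A and of LABE_00063069-RA in each library, by treatment, 1 point per library, with the off limit dotted and the on limit dashed. Each treatment has a low and a high set of intestines, and LABE_00063069-RA has the same division at 86.8 to 221 and 2541 to 6202.

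Group C was LABE_00065293-RA, LABE_00065295-RA and LABE_00072167-RA, 3 of the members called higher in protein than in lipid intestines (r 0.898 to 0.975). All 3 were exactly 0 in the same 6 libraries, lipid 9, 14, 18 and 28, cellulose 23 and empty 30. None of the protein libraries, 4 of 6 lipid, 1 of 7 cellulose and 1 of 6 empty libraries were in that set. With treatment means removed, r was 0.878 to 0.960, so the genes moved together within treatments as well. A further 3 non-members followed them, chosen here after their values were seen: LABE_00064521-RA (r = 0.963), LABE_00070863-RA (r = 0.948) and LABE_00064517-RA (r = 0.938). LABE_00064521-RA lay between 29.4 and 49.96 in those 6 libraries and between 80.7 and 882 in the other 19.

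Groups B and D were low in libraries of all 4 treatments. Group B (LABE_00031709-RA, LABE_00075338-RA and LABE_00082184-RA, r 0.782 to 0.883) was low in 8 libraries, 2 of each treatment, and LABE_00075338-RA was 0 in all 8. Group D (LABE_00083055-RA, LABE_00083056-RA and LABE_00096104-RA, r 0.705 to 0.816) was graded, with its low libraries 3 of 6 protein, 4 of 6 lipid, 4 of 7 cellulose and 1 of 6 empty. Outside the members, 25 genes had r of 0.7 or more with its mean. The 6 pairs had r of 0.719 to 0.942. The lowest was group F, with a Spearman (rank) correlation of 0.519. On its mean, the largest gap set only protein libraries 10 and 22 apart as high. With 1 library left out, r fell to as low as 0.647 in group F, 0.689 in group H and 0.673 in group D. The mean profiles of groups A to D had r between -0.24 and 0.28 with each other, and their sets of low libraries differed. Groups D, H and I were less separate. LABE_00079814-RA of group I had r of 0.809 with LABE_00083056-RA and 0.773 with LABE_00083055-RA of group D. LABE_00083055-RA had r of 0.749 with LABE_00089411-RA of group H.

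Identifiers that were close in number sometimes went together. LABE_00065293-RA and LABE_00065295-RA of group C, and LABE_00083055-RA and LABE_00083056-RA of group D, were 2 of the 4 member pairs with numbers within 20 of each other, and the other 2 pairs had r under 0.7. Among the 23 pairs within 100 the median r was 0.013. These counts cover pairs of members only. The non-member nearest to group A, LABE_00063069-RA, is close in number to LABE_00063065-RA of that group. LABE_00064517-RA and LABE_00064521-RA, which followed group C, are close to each other. The other non-members named with groups A and C, LABE_00086532-RA and LABE_00070863-RA, had no such neighbour in their group. Whether the numbers follow position in the genome is not given in the sources used here. Genes that overlap, or that are near-identical copies sharing reads, could move together by counting alone, and this was not tested.

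A few members ran opposite to each other. The lowest r of all pairs was -0.72, between LABE_00065293-RA and LABE_00092632-RA, and 7 pairs (0.139%) had r of -0.6 or lower, less than the 0.537% among all pairs of tested genes. LABE_00006073-RA and LABE_00049209-RA, named after their values were seen, had r of -0.63. In 11 libraries the first was off and the second on, and in 3 the reverse.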

How the data were processed

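RNA-seq was analysed in 25 libraries of the anterior intestine (6 protein, 6 lipid, 7 cellulose and 6 empty), 1 library per RNA sample. Nothing states that intestines were tested in batches. The deposited values are a normalized signal: the authors trimmed reads with Trim Galore 0.4.2, aligned them with HISAT2 to the Labrus genome assembly, counted them with featureCounts, left out genes with low counts and divided counts by DESeq2 size factors. Whole reads were recovered in 23 libraries. Dividing by 1 read's worth gave whole numbers within 0.1 read. In lipid library 21 and empty library 19, where that worth was 1.009 and 0.991, this held as well. They were nevertheless not counted as recovered and were used as normalized signal only.

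Members and lists were chosen with earlier results of these data known. Genes named are those with the highest SD, the smallest exact or limma p, the representative and nearest non-member of groups of 5 or more, and all others named were chosen after their values were seen. The off state was tested by an exact test over all 2-by-4 tables (two-sided) in genes off in 5 to 20 libraries. Level was tested by limma 3.58.1 (R 4.3.3, trend and robust moderation) on log2(value + 1), in genes above 10 in at least 5 libraries, with Benjamini-Hochberg adjustment over all genes. The limma p-values set differences between treatments against the spread between intestines within treatments, moderated over all genes tested. The exact p-values rest on the counts of off libraries alone. edgeR 4.0.16 and DESeq2 1.42.0 on recovered reads were alternatives; DESeq2 gave an adjusted p to 98 members. Members were joined by average linkage on Pearson r. The design allowed for raw counts, but the values were normalized, so limma was used. The limma, edgeR and DESeq2 fits were tested on simulated data with the same setting of spread for all genes. Members had a median SD of 2.32 log2 units, against 0.41 for all genes tested. How the fits behave for genes of such spread was not tested. Other alternatives were another pseudocount, filter, scaling, off limit and leaving out libraries. Analyses used Python 3.11.15 with scipy 1.17.1.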

Additional observations from a re-analysis of the deposited data

Results flagged for a closer look

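In 84 sets of libraries, each of 1 treatment, the highest or lowest library was compared with its neighbour. A set held the values of 1 of 19 genes, or the number of members off or on. Chance alone singles out about 1 in 20 of such sets, 4.2 of these 84, and 11 stood out. The sets are not independent, since genes with 2 states easily place 1 library far away.

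Protein library 22 stood below the other protein libraries for LABE_00071226-RA, at 6.82 with the next at 84.3, and for LABE_00094302-RA, at 0 with the next at 133. For LABE_00094302-RA cellulose library 17 stood above the other 6, at 0.726 with the rest at 0, which is 1 read. Cellulose library 23 was at 0 for LABE_00065295-RA, with the next at 27.6, and at 0 for LABE_00072167-RA, with the next at 24.7. Empty library 30 was likewise at 0 for LABE_00065295-RA, with the next at 29.3, and at 0 for LABE_00072167-RA, with the next at 27.96.

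For LABE_00085286-RA cellulose library 25 stood above the others, at 65.2 with the next at 4.63, and empty library 26 below, at 0 with the next at 12.9. For LABE_00091949-RA lipid library 18 stood below the others, at 2.38 with the next at 67.6, and empty library 24 above, at 139 with the next at 3.92.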

How the results depend on the processing

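The number of genes passing the rule was set by its limits: 101 became 61 with off at 1 or less, 210 with off at 5 or less, 166 with on at 20, 51 with on at 50, 178 with 4 libraries on each side, 62 with 6, and 67 without the 3 libraries with the most genes at 0. Leaving out those 3 libraries, the fits on 23 libraries and the moderation without robust weights are alternatives that were added after seeing the data. The members called for the off state, 2, were 4 with off at 1 or less, 8 at 10 or less and 5 without the 3 libraries, and in these settings the share of members called was above that of all genes; leaving out 1 library gave 1 to 5 (1 without protein 20, lipid 9, 14 or 18 or cellulose 17, 25 or 31, and 4 or 5 without lipid 21 or 29, cellulose 23 or empty 30). Members called for level over 4 treatments, 4, were 2 with a mean value of at least 50 and 2 to 6 with 1 library left out (2 without protein 10 or 11 or lipid 9, 14, 18 or 28). Protein versus cellulose, 5, gave 2 at pseudocount 0.1, 1 at a mean of 50, 3 without the 3 libraries and 1 to 7 with 1 left out (1 without protein library 11, 20 or 33 or cellulose library 23). Lipid versus cellulose, 1, gave 2 at pseudocount 0.1, 3 with edgeR, 5 with DESeq2, 2 with limma on 23 libraries, 2 without robust moderation and 0 to 4 with 1 left out (0 without lipid 9, 14, 18 or 28 or cellulose 27, 4 without lipid 29). Protein versus empty, 3, gave 1 at a mean of 50, 1 without the 3 libraries and 1 to 3 with 1 left out (1 without protein library 10, 20 or 33 or empty library 30). Lipid versus empty, 2, gave 1 at pseudocount 0.1, 1 at a mean of 50, 1 with edgeR, 4 with DESeq2, 1 with limma on 23 libraries, 4 without the 3 libraries and 0 to 5 with 1 left out (0 without empty library 19, 5 without empty library 30). Cellulose versus empty, 0, gave 1 with only the 2 groups, 2 with edgeR, 4 with DESeq2, 2 with limma on 23 libraries, 1 without the 3 libraries and 0 to 4 with 1 left out (4 without cellulose library 25 or empty library 26). Protein versus lipid, 4, gave 2 at a mean of 50 and 4 to 6 with 1 left out. Groups of 5 or more, 1, became 2 with joining at r = 0.5 and 1 to 2 with 1 left out (2 without protein library 11 or 33 or lipid library 28). Fewer members were tested at a mean of 50 and without the 3 libraries, and elsewhere the cause was not tested. For level, the shares of all genes called in these alternatives are not given here. Those counts therefore do not show whether members stood out from other genes. The 21 calls on named genes were computed in 729 alternatives: 586 stayed past the threshold, 143 did not and 0 reversed. Upper quartile scaling moved library medians by -0.026 to 0.029 log2. No paired analysis was possible because library numbers are not shared between treatments. Off values rest on 4 reads or fewer, so depth limits what off can mean.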
